A study of Drosophila melanogaster with 17 samples.

Results

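The comparison described here is that of neuronal Smn knockdown (C24) with its control (WT) in the second sequencing round of the study. It used the 3 C24 libraries C24_5, C24_6 and C24_7 and the 3 WT libraries WT_4, WT_5 and WT_6, which are 6 of the 17 mRNA-seq libraries of the series. Each library was made from the pooled central nervous system (CNS) of about 200 larvae late in the third instar, with brain and nerve cord together and the sexes not kept apart. WT larvae came from females carrying the elavGAL4 driver, P{GAL4-elav.L}3, crossed to males with the insertion P{UAS-PWIZ}15. C24 larvae came from the same driver females and males with P{UAS-Smn RNAi-C24}, which makes a hairpin RNA against Smn wherever GAL4 is present. All larvae therefore carried the driver and kept their own copies of Smn. The study describes the elav promoter as a driver specific to neurons after their last division. On that account glia and dividing progenitors in the same pools were not the target, but GAL4 was not measured by cell type here. The genotype entries in the sample labels read elavGAL4-C28, C29 and C30 for the libraries titled C24 rep5, rep6 and rep7, and the titles were followed. WT and C24 larvae had fathers of different transgenic stocks, so effects of the hairpin and of other differences between these stocks cannot be told apart.

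Smn is the central protein of the complex that loads Sm proteins onto the small nuclear RNAs of the spliceosome, and loss of its human counterpart causes spinal muscular atrophy. GAL4 and UAS are a yeast activator and its target sequence, used in flies to switch on a transgene in chosen cells. The hairpin is cut into small RNAs that direct destruction of the matching mRNA. The question behind the comparison was which other mRNAs of the nervous system change when neurons carry the knockdown.

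The deposited values are whole-number counts of read pairs per gene. WT libraries held 18260661 to 26977495 counts and C24 libraries 18432613 to 20234140. Levels are given as CPM, the count relative to the library size as scaled by the TMM method of edgeR. A count of 0 allows up to 3 counts, or 0.113 to 0.166 CPM in these libraries, and this limit covers counting error only. Smn itself stood at 62.7 to 68.2 CPM in WT and at 54.6, 67.0 and 55.2 CPM in C24_5, C24_6 and C24_7, with a log2 fold change of -0.16 with an SE of 0.0952 (adjusted p = 0.741 by edgeR). Counts per gene cannot separate Smn mRNA from hairpin transcript of the same sequence. The study looked at reads along Smn and reported no marked difference between the strains over the stretch that the hairpin matches. It stated that reads from the untargeted part alone gave a similar level of Smn, with those data not shown. Its RT-qPCR gave a slight fall of Smn in C24 that was not significant. The 12 neuronal markers summed to 9177 to 9329 CPM in WT and to 10036, 7730 and 10228 in C24_5, C24_6 and C24_7 (exact permutation test, two-sided, p = 1). C24_6 lay below the WT range and the other C24 libraries above it, so this p does not show equal levels. The glial marker repo lay between 141 and 160 CPM in all 6 libraries. Of 10 glial markers 3 had a positive fold change, with a median log2 fold change of -0.06. Among them moody was at 62.3 to 67.2 CPM in WT and 49.8 to 59.1 in C24 (edgeR adjusted p = 0.426). C24_6 stood apart in part of the neuronal genes. The active-zone gene brp was at 124 CPM there, against 347 and 441 in the other C24 libraries and 301 to 518 in WT.

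Of 9394 genes with enough counts to be tested, 37 (0.394%) had an edgeR adjusted p under 0.05. The changes were few and ranged from shifts under 2-fold in genes such as mago, CG10353 and Ddc to falls of over 16-fold in Cyp4p1 and Cyp4p2. In C24 15 genes rose (0.160% of genes tested) and 22 fell (0.234%). The median log2 fold change was 1.19 among the genes that rose and -2.41 among those that fell. At least 2-fold changes were found for 25 genes, and 7 genes differed by more than 16-fold. In all 37 genes the 3 C24 libraries lay entirely above or entirely below the 3 WT libraries, which was so for 13.6% of all genes tested. About equal parts of the list were well and poorly expressed, with 20 genes at a mean log2 CPM of at least 1 and 17 below it. P-values measure the spread between pools of larvae. By what they are known to encode, 6 genes belong to detoxification, 4 to peptidases, 2 each to metabolism, to RNA and transcription, to stress and defence and to transmitters, and 1 to a ubiquitin ligase. No role is given here for the other 18. These classes were assigned after the values had been seen.

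**Figure D1:**
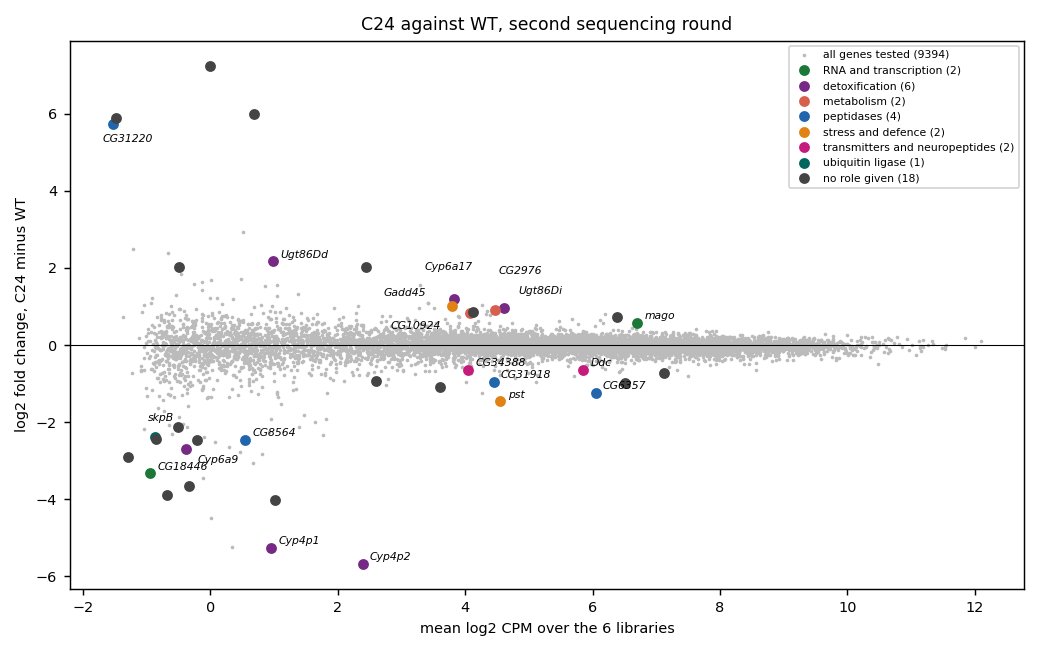
Log2 fold change (C24 minus WT) against the mean log2 CPM over the 6 libraries for the 9394 genes tested in grey, with the 37 genes past the threshold coloured by class. The genes with the largest changes, over 16-fold, have a mean log2 CPM under 3, while the genes above a mean log2 CPM of 5 changed by 2.35-fold or less.

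The detoxification enzymes held the largest group. Cytochromes P450 are heme enzymes that oxidize hormones, lipids and foreign compounds, and UDP-glycosyltransferases attach sugars to such products so that they can be excreted. The neighboring genes Cyp4p1 and Cyp4p2 fell most, with log2 fold changes of -5.26 and -5.67. Cyp6a17, a P450 that flies use to set their temperature preference, rose. It measured 9.64, 9.38 and 8.97 CPM in the WT libraries and 17.5, 24.02 and 22.4 CPM in the C24 libraries. Each C24 library was thus well above each WT library, and C24 minus WT was 1.19 on the log2 scale (SE 0.135, and adjusted p = 0.0241 by edgeR). Cyp6a9, which lies 3.62 kb away on chromosome 2R, moved the other way. It had 51, 34 and 32 counts in WT and 4, 6 and 5 in C24, a ratio of 6.49 in the summed counts (95% exact interval 3.78 to 12.0, counting error only). Its log2 fold change was -2.68 (edgeR adjusted p = 0.0241). Between them lies Cyp6a23, at 0.840 to 5.78 CPM in WT, with its highest value in WT_5, and at 1.05 to 1.61 in C24. Its log2 fold change of -0.87 did not pass the test (edgeR adjusted p = 0.780). Genes of this cluster are similar in sequence, and reads that could match several copies may be lost or misplaced, so the values of single members are uncertain.

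Both UDP-glycosyltransferases past the threshold rose, and both lie in the cluster at 86D on chromosome 3R, 22.7 kb apart. Ugt86Di (also Ugt302K1) measured 17.7, 19.1 and 15.7 CPM in WT and 32.3, 37.96 and 31.5 CPM in C24. The lowest C24 value exceeded the highest WT value by more than the range of WT, with a log2 fold change of 0.95 with an SE of 0.111 (adjusted p = 0.0241 by edgeR). Ugt86Dd (also Ugt35C1) was at 1.05, 1.09 and 0.573 CPM in WT and at 3.09, 4.56 and 4.49 in C24. The summed counts of Ugt86Dd differed 4.62-fold (95% exact interval 3.49 to 6.19).

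Across both families the calls did not all point one way. Of 46 cytochrome P450 genes tested, 1 rose and 3 fell, and the median log2 fold change was -0.17 against -0.00026 for all genes. This median was -0.24, -0.21 and 0.04 in C24_5, C24_6 and C24_7 taken singly, and -0.05 without WT_5 and C24_6. An unadjusted p under 0.05 was reached by 14 of the 46, of which 5 had a positive and 9 a negative fold change, while 7.31% of all genes reached it. One of the 9, Cyp9b2, was at 16.6 CPM in WT_5, the library with the highest midgut markers, and at 0.782 to 1.91 in the others. Among the 13 UDP-glycosyltransferases tested, 2 rose and none fell, yet the median was -0.12, and 5 of the 13 had a positive fold change. Of 23 glutathione S-transferases none passed the test of edgeR or DESeq2, and 2 had an unadjusted p under 0.05. The median there was 0.03, or -0.07 without WT_5 and C24_6, and the smallest p belonged to GstE7, at 0.6004 to 0.993 CPM in WT and 0.166 to 0.368 in C24 (edgeR adjusted p = 0.245). Cyp4p3, the third gene of the Cyp4p cluster, was at 1.11 to 1.501 CPM in WT and 0.0920 to 0.465 in C24 (edgeR adjusted p = 0.145), and it is named here after its values were seen.

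Among defence and stress genes, pastrel (pst), known in flies for restricting Drosophila C virus and for a part in memory, fell with little spread between libraries. Its level was 38.9, 39.3 and 38.4 CPM in WT and 13.1, 15.5 and 13.7 CPM in C24. The WT libraries differed by less than 1 CPM, and the log2 fold change was -1.46 (SE 0.0862, and adjusted p = 0.00115 by edgeR). Gadd45, a gene of the DNA damage and stress response, rose from 8.22, 10.7 and 10.4 CPM in WT to 18.8, 18.2 and 21.6 CPM in C24. Its log2 fold change was 1.00 (SE 0.135, and adjusted p = 0.0352 by edgeR), without overlap between the genotypes. No gene of the antimicrobial and immune list passed among 15 tested with edgeR, where 3 had an unadjusted p under 0.05, and DESeq2 called 1 higher and 1 lower. Nearest to it were nec, a serine protease inhibitor of the Toll pathway, at 2.78 to 3.19 CPM in WT and 1.10 to 1.60 in C24 (edgeR adjusted p = 0.0969), and the antibacterial peptide gene AttB at 0.993 to 1.47 in WT and 2.58 to 3.48 in C24 (edgeR adjusted p = 0.109). Heat shock genes gave 0 calls of 18 with edgeR (2 with an unadjusted p under 0.05) and 1 with DESeq2. Hsp70Bc had 3.41 to 9.65 CPM in WT and 1.29 to 1.91 in C24 (edgeR adjusted p = 0.154).

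**Figure D2:**
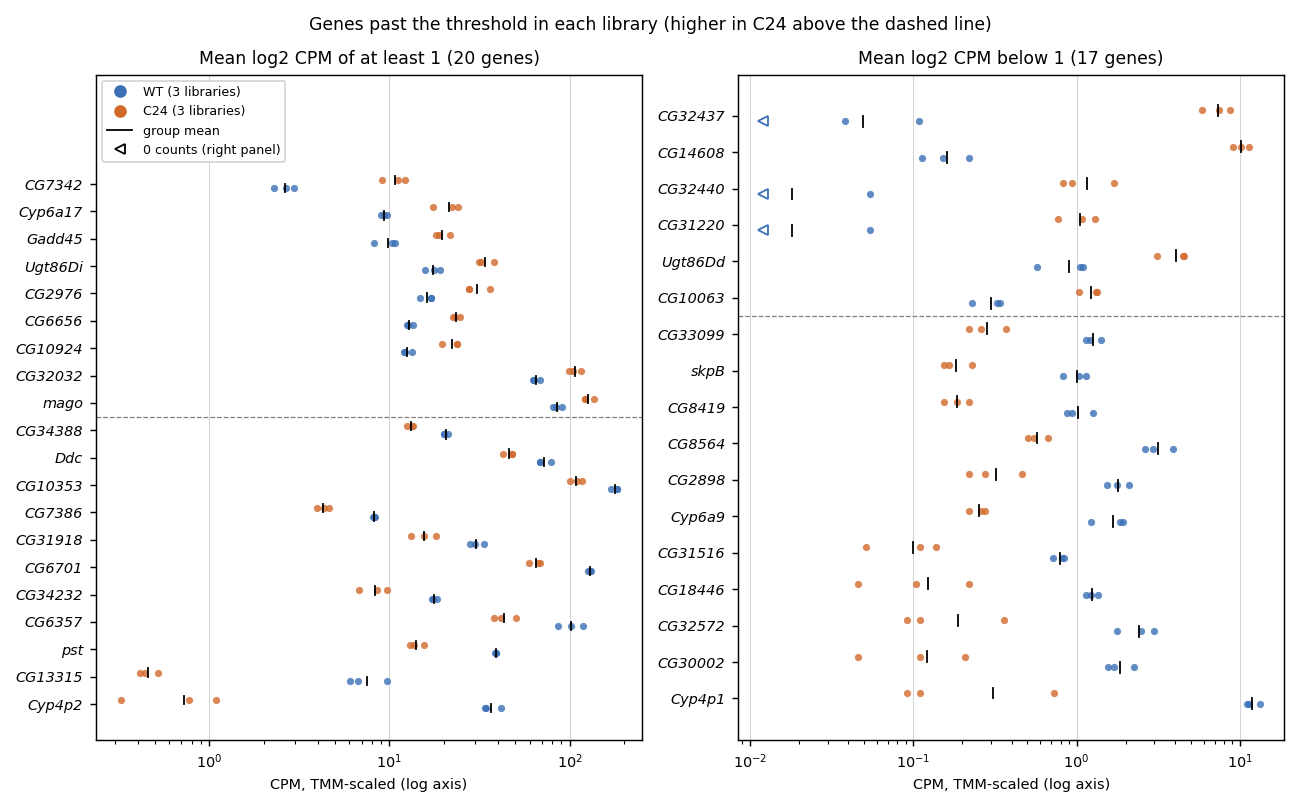
CPM on a log axis for each of the 37 genes in each WT (blue) and C24 (orange) library, with the group mean as a black line and libraries without a count as open triangles. In each gene the colours stay apart, and pst shows 3 WT libraries between 38.4 and 39.3 CPM above C24 libraries between 13.1 and 15.5.

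Of 4 peptidase genes 3 fell. CG6357, of the cathepsin L type of cysteine proteases that digest protein in lysosomes, was the most abundant, at 101, 119 and 85.7 CPM in WT and 41.5, 50.2 and 38.3 CPM in C24. Even the lowest WT library stood well above the highest C24 library, and the log2 fold change was -1.23 (SE 0.147, and adjusted p = 0.0263 by edgeR). CG31918 (Nepl3), a relative of the neprilysins that cleave small peptides outside the cell, had 33.3, 29.9 and 28.0 CPM in WT and 18.2, 15.6 and 13.1 in C24. This was a log2 fold change of -0.96 with an SE of 0.133 (adjusted p = 0.0391 by edgeR), and CG31918 overlaps His3.3A on the opposite strand. CG8564, of the metallocarboxypeptidase family, fell from 3.90, 2.62 and 2.94 CPM in WT to 0.552, 0.506 and 0.671 in C24, a 5.60-fold difference in the summed counts (95% exact interval 3.90 to 8.29). The only peptidase gene that rose was CG31220, of the clip-domain serine proteases. It had 1 count in the WT libraries together and 14, 28 and 21 in the C24 libraries, a ratio of 75.7 with a wide interval (13.1 to 3037, 95% exact).

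Both genes of neuronal signalling past the threshold fell, and both changes were under 2-fold. Ddc encodes dopa decarboxylase, which makes dopamine and serotonin. It measured 79.0, 68.3 and 68.7 CPM in WT and 47.7, 48.1 and 42.8 CPM in C24, so that the groups were 20 CPM or more apart. The log2 fold change was -0.64 (SE 0.0867, and adjusted p = 0.0352 by edgeR). CG34388 (natalisin) encodes a neuropeptide of the tachykinin-related kind, made by a small number of brain neurons and known for its part in mating behavior. It fell from 21.2, 20.1 and 20.2 CPM to 12.6, 13.5 and 13.4 CPM, a log2 fold change of -0.64 with an SE of 0.0854 (adjusted p = 0.0352 by edgeR). In whole-CNS RNA fewer cells of a type and less RNA per cell cannot be told apart. Ddc overlaps CG10561 and CG34388 lies opposite cv-c, and reads were counted without regard to strand.

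The rest of the genes for signalling held no further call in the main test. Of 21 monoamine genes tested only Ddc passed. The list median was -0.08, and 0.07 without WT_5 and C24_6. Taken singly, C24_5, C24_6 and C24_7 had -0.07, -0.34 and 0.12, so the C24 libraries differed in sign. Of 40 neuropeptide and processing genes only CG34388 passed, and the median was 0.05, or 0.0019 without WT_5 and C24_6. In that smaller set of libraries 1 gene of this list rose and 2 fell. Akh, the adipokinetic hormone of the ring gland, was at 3.28 to 3.98 CPM in WT and 5.79 to 6.90 in C24 without passing (edgeR adjusted p = 0.125), and it was singled out after its values were seen. The ring gland markers, Akh among them, had positive fold changes in 6 of 6 genes (median 0.50), and DESeq2 called 1 of them higher. Their sum was 48.7 CPM in WT_6, 92.5 and 98.6 in the other WT libraries and 97.1 to 149 in C24, so the groups overlapped, and their part in the value of Akh was not tested. The counts past the threshold were 0 of 15 for cholinergic transmission, 0 of 22 for glutamate and GABA, 0 of 30 for synaptic vesicle release and 0 of 26 for voltage-gated ion channels. Unadjusted p-values under 0.05 were found for 2, 1, 2 and 0 of these genes in the same order by edgeR, and DESeq2 called none. Without WT_5 and C24_6, where 214 of 9590 genes passed, 1, 0, 2 and 0 of them passed, all higher in C24. Among the activity-regulated genes Gadd45 rose and the other 9 did not pass in the main test. Closest was Arc1, which encodes a capsid-forming protein that carries RNA between neurons and muscle. Its level was 80.9 to 103 CPM in WT and 57.3 to 60.5 in C24 without overlap (edgeR adjusted p = 0.0584). DESeq2 called 1 gene of this list higher and 1 lower, as did edgeR without WT_5 and C24_6.

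In voltage-gated channels the fold change was positive in 3 of 26 genes, and the list median of -0.13 came mainly from C24_6. Relative to the WT mean the list stood at -0.67 in C24_6, at -0.01 in C24_5 and at 0.18 in C24_7. Ribosomal proteins showed the reverse. Positive fold changes were found for 72 of 87 cytoplasmic and 59 of 72 mitochondrial ribosomal protein genes, with medians of 0.09 each. None passed the threshold of edgeR, 0 and 3 had an unadjusted p under 0.05, and DESeq2 called 1 mitochondrial gene. The cytoplasmic list stood at 0.27 in C24_6 against -0.01 and -0.02 in the other C24 libraries, and the mitochondrial list at 0.34 against -0.05 and -0.06. WT_5 deviated in the same sense, with -0.15 for channels and 0.16 for cytoplasmic ribosomal proteins. Without WT_5 and C24_6 the medians were -0.00072 for channels, 0.07 for cytoplasmic and -0.01 for mitochondrial ribosomal proteins. In that smaller set 2 cytoplasmic genes passed, both higher in C24, and of the mitochondrial genes 1 rose and 1 fell.

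Genes around Smn and splicing gave no call in the main test. None of 19 genes of the SMN complex and snRNP assembly passed, with a median of 0.07. It was 0.19 in C24_6 against -0.04 and -0.06 in C24_5 and C24_7, and 0.02 without WT_5 and C24_6. The smallest p there belonged to csul, an arginine methyltransferase that modifies Sm proteins, at 41.4 to 46.7 CPM in WT and 46.8 to 54.2 in C24 (edgeR adjusted p = 0.605). None of 31 splicing factors passed, with a median of 0.01, nor did any of 17 genes of RNA interference, with a median of -0.05. Without WT_5 and C24_6 these medians were 0.04 and -0.03. In these lists 1, 0 and 3 genes had an unadjusted p under 0.05 by edgeR, and DESeq2 called none. Without WT_5 and C24_6, where 214 of 9590 genes passed, 1 splicing factor rose and no other member of these lists passed. AGO3 had the smallest p of these, at 1.18 to 1.69 CPM in WT and 2.21 to 2.63 in C24 (edgeR adjusted p = 0.489).

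In RNA processing outside these lists, mago rose. It encodes a core subunit of the exon junction complex, which marks spliced mRNAs and helps to place them in the cell. The level was 81.0, 90.6 and 83.8 CPM in WT and 122, 137 and 121 CPM in C24, the smallest change of the 37 at a log2 fold change of 0.57 with an SE of 0.0810 (adjusted p = 0.0411 by edgeR). The ranges did not meet, and mago overlaps Magi on the opposite strand. CG18446 (Lime), a zinc-finger factor that ties immune cells to sugar metabolism in larvae, fell from 36, 21 and 32 counts to 4, 1 and 2. Its summed counts differed 10.6-fold (95% exact interval 4.93 to 27.1). The ubiquitin ligase component skpB, related to Skp1, fell from 22, 21 and 27 counts to 3, 5 and 3, a 5.30-fold difference (2.79 to 11.1).

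Both metabolic genes rose. CG10924 (Pepck2), a phosphoenolpyruvate carboxykinase of the pathway that makes glucose, had 12.2, 13.4 and 12.1 CPM in WT and 23.7, 23.8 and 19.6 in C24. The log2 fold change was 0.84 (SE 0.111, and adjusted p = 0.0352 by edgeR) with a clear gap between the groups. CG2976 (Fnta), the alpha subunit of farnesyltransferase, which adds a lipid to signalling proteins, was at 14.7, 17.0 and 17.0 CPM in WT and 27.8, 36.0 and 27.5 in C24. Its log2 fold change was 0.91 (SE 0.130, and adjusted p = 0.0433 by edgeR), and C24_6 was the highest library. Elsewhere in metabolism no call was found among 69 genes of oxidative phosphorylation, with a median of 0.03, or among 17 genes of the insulin and nutrient response, with a median of -0.06. Both medians changed sign without WT_5 and C24_6, to -0.04 and 0.03, and that of the insulin list was -0.21 in C24_6 against 0.05 and 0.03 in C24_5 and C24_7. Unadjusted, 2 and 1 of them had a p under 0.05 by edgeR, and DESeq2 called none. Without WT_5 and C24_6, 1 gene of oxidative phosphorylation passed, higher in C24, and 0 of the insulin list. Ldh, listed as ImpL3, which turns pyruvate into lactate, was at 13.1, 19.1 and 31.0 CPM in C24 and 33.5 to 42.3 in WT (edgeR adjusted p = 0.513).

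Of the 18 genes without a given role, 8 had a mean log2 CPM of at least 1. CG10353 and CG6701 were the most abundant of those that fell. CG10353 measured 184, 169 and 183 CPM in WT and 109, 100 and 117 CPM in C24, a log2 fold change of -0.72 with an SE of 0.0821 (adjusted p = 0.0241 by edgeR). CG6701 had 131, 127 and 130 CPM in WT and 67.0, 59.3 and 68.2 in C24. WT libraries differed by only a few CPM, and the level in C24 was lower in every library, with a log2 fold change of -0.996 with an SE of 0.0761 (adjusted p = 0.00365 by edgeR). CG34232 fell from 18.3, 17.2 and 17.4 CPM to 6.79, 9.71 and 8.57, and CG7386 from 8.10, 8.34 and 8.21 CPM to 3.97, 4.60 and 4.34. CG13315, at 6.00, 9.65 and 6.72 CPM in WT, was almost gone in C24 at 0.441, 0.414 and 0.516 CPM, a log2 fold change of -4.01 with an SE of 0.277 (adjusted p = 0.00217 by edgeR).

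Of the abundant genes without a role that rose, CG32032 reached 105, 116 and 99.3 CPM in C24 from 63.5, 68.7 and 62.4 in WT. It lies 2.02 kb from CG13315, which fell. CG6656 rose from 12.5, 13.5 and 12.7 CPM to 23.1, 24.8 and 22.4, with a log2 fold change of 0.86 with an SE of 0.0877 (adjusted p = 0.0181 by edgeR). CG7342 was at 2.96, 2.67 and 2.29 CPM in WT and at 11.1, 12.1 and 9.09 in C24, about 4.07-fold higher. In each of these genes all C24 libraries lay above all WT libraries.

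The other genes without a role were rare transcripts. CG14608 and CG32437 rose from the limit of detection to 9.05 to 11.4 and to 5.89 to 8.66 CPM. CG32440 lies 0.312 kb beyond CG32437 on chromosome 3L and had 1 count in WT and 17, 37 and 16 in C24, a ratio of 84.1 (95% exact interval 14.6 to 3370). CG10063 rose 4.18-fold in the summed counts (2.54 to 7.15). Among those that fell, CG30002 went from 132 counts in the WT libraries together to 7 in C24, CG32572 from 167 to 11, CG2898 from 130 to 19, CG33099 from 90 to 17, CG8419 from 74 to 11 and CG31516 from 56 to 6. Their ratios ran from 4.41 for CG33099 to 15.7 for CG30002. Of the 37 genes, 15 overlap another annotated gene, 13 of them one on the opposite strand, which counting without strand cannot tell apart.

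The genes past the threshold were counted by chromosome arm without a test, and neighboring genes were counted singly. Arm 2R held 13 of the 37 (35.1%), of which 4 rose and 9 fell, against 18.7% of the genes tested. Arms 3R, 3L, 2L and X held 9, 8, 4 and 3 (24.3, 21.6, 10.8 and 8.11%), against 23.1, 18.9, 16.6 and 16.0% of the genes tested. The small chromosome 4, with 0.809% of the genes tested, held none. All 3 genes on X fell. In the BDGP6 annotation 16 of the 37 genes lay within 100 kb of another, as 8 pairs. The windows of this size around the 37 genes held 9 to 33 tested genes. The number of pairs among as many genes drawn from all those tested was not computed, so no clustering is read from this count. The pairs Cyp4p1 with Cyp4p2, pst with CG8564 and skpB with CG34232 fell together, while CG32437 with CG32440, Ugt86Di with Ugt86Dd and CG7342 with CG31220 rose together. In Cyp6a17 with Cyp6a9 and CG32032 with CG13315 the neighbors moved in opposite directions. The genes pst (3L:7357275-7360263) and CG8564 (3L:7385648-7387914) lie 25.4 kb apart. Of the windows of 100 kb around the 37 genes, which held 0 to 8 genes with an unadjusted p under 0.05, that of pst held the most and is given for that reason. Of the 25 genes tested there, 8 had an unadjusted p under 0.05, against 7.31% of all genes, and their median log2 fold change was -0.03.

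The pilot round offers libraries that took no part in the fit and share no control with it, WT_3 and C24_2 to C24_4, the pilot libraries with a CNS profile of marker genes. Of these, the study advised against further use of WT_3 and C24_3 for their low GAL4. As WT_3 is the only such control, this is a description without a replicate check, and it rests on that library. All 37 genes differed in the pilot in the direction of the second round, which was so for 47.5% of all genes tested. In 36 of the 37 all 3 C24 libraries lay on that side of WT_3, against 24.8% of all genes, the exception being CG31516. Without C24_3, an alternative added after the data were seen, the mean of the other C24 libraries had the direction of the second round in 37 genes, against 41.1% of all genes. On the log2(CPM + 0.5) scale, which understates changes of low genes, the median difference was 0.82 for the genes that rose and -1.17 for those that fell. In a common scaling of 14 libraries, pst was at 41.0 CPM in WT_3 and 20.8, 17.8 and 14.2 in C24_2, C24_3 and C24_4. Ddc stood at 73.2 CPM in WT_3 and 47.7, 44.0 and 63.1 in C24, and Gadd45 at 10.6 against 16.5, 17.8 and 14.2. Some genes separated less. CG6701 was at 71.5 CPM in WT_3, near the C24 values of the second round, with 60.4, 38.4 and 53.03 in the pilot C24 libraries. CG10353 was at 112 CPM in WT_3, inside its second-round C24 range of 99.9 to 119 and below its WT range of 169 to 186. In WT_3, CG2898 (0.324 CPM) and CG31516 (0.162) were also nearer to the second-round C24 than WT values. CG8564, at 1.02, lay between them. CG2976 had 30.9 CPM in WT_3 and 33.8 to 45.3 in C24, and mago 118 and 133 to 175.

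The direction also held beyond the threshold. Of 61 genes with an edgeR adjusted p from 0.05 to 0.2, 59 (96.7%) had the same sign in the pilot, and in 48 all 3 C24 libraries were on that side of WT_3. Of the 189 genes with an adjusted p from 0.2 to 0.5, 164 (86.8%) had the same sign, and of the 9107 genes above that 46.2%. Just outside the threshold stood CG11349, at 8.48 to 10.2 CPM in WT and 4.03 to 5.24 in C24, and CG6347 (CtsL2), another cathepsin L type protease, at 0.901 to 1.26 in WT and 0.184 to 0.310 in C24 (edgeR adjusted p = 0.0561 for both).

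**Figure D3:**
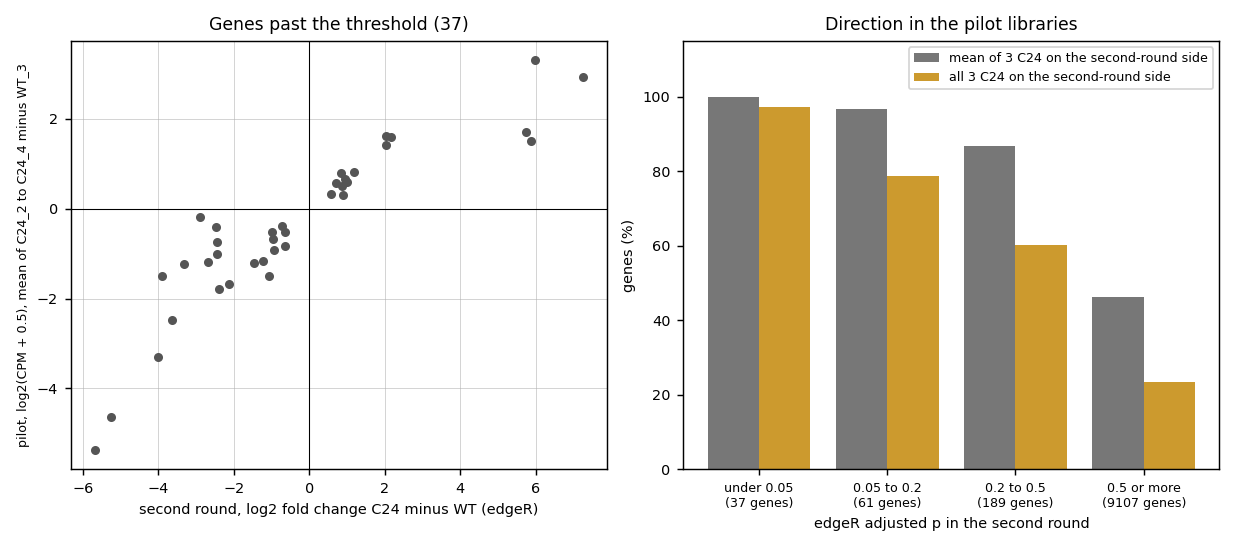
Left, log2 fold change of the 37 genes in the second round against their difference in the pilot (mean of C24_2 to C24_4 minus WT_3, log2(CPM + 0.5)). Right, percent of genes with the pilot difference on the second-round side, by adjusted p. All 37 points share their sign, and the share falls from 96.7% at an adjusted p of 0.05 to 0.2 to 46.2% at 0.5 or more.

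The 4 X7/C24 libraries of the later round carry the driver and a chromosome that holds both the C24 hairpin and a deletion of Smn. No WT library was sequenced with them. The study left out an X7/C24 library for its many duplicates, and X7/C24_4 kept the lowest share of reads after their removal. All 4 are used here. The X7/C24 libraries share the WT controls of this comparison, so their levels are only set beside it. All 4 lay above the 3 WT libraries for 12 of the 15 genes that rose in C24, and below them for 19 of the 22 that fell. Over all genes tested, 25.3% had all 4 beyond the WT range on the side of C24. The 37 were chosen with these WT libraries, so nothing is read from the difference. Cyp6a17 was the clearest departure, at 4.21 to 8.32 CPM in X7/C24, below each WT library, while C24 was above. CG10063 was at 0.0376 to 0.345 CPM in X7/C24, around or below the WT level, and CG10924 at 8.66 to 15.3 spanned it. CG6357 (83.8 to 139 CPM) and CG7386 (7.20 to 9.59) were at or around WT levels. The X7/C24 libraries were split for skpB, at 0.257, 0.492, 1.43 and 2.02 CPM, below and above the WT range of 0.835 to 1.15. CG6701 was at 110, 112 and 112 CPM in X7/C24_1, X7/C24_2 and X7/C24_3, nearer to WT, but at 75.6 in X7/C24_4, nearer to C24. Ddc, at 38.3 to 50.1 CPM, and pst, at 11.2 to 21.4, stayed near the C24 level. The highest X7/C24 values of Cyp6a17, CG6357, skpB and pst are those of X7/C24_4.

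**Figure D4:**
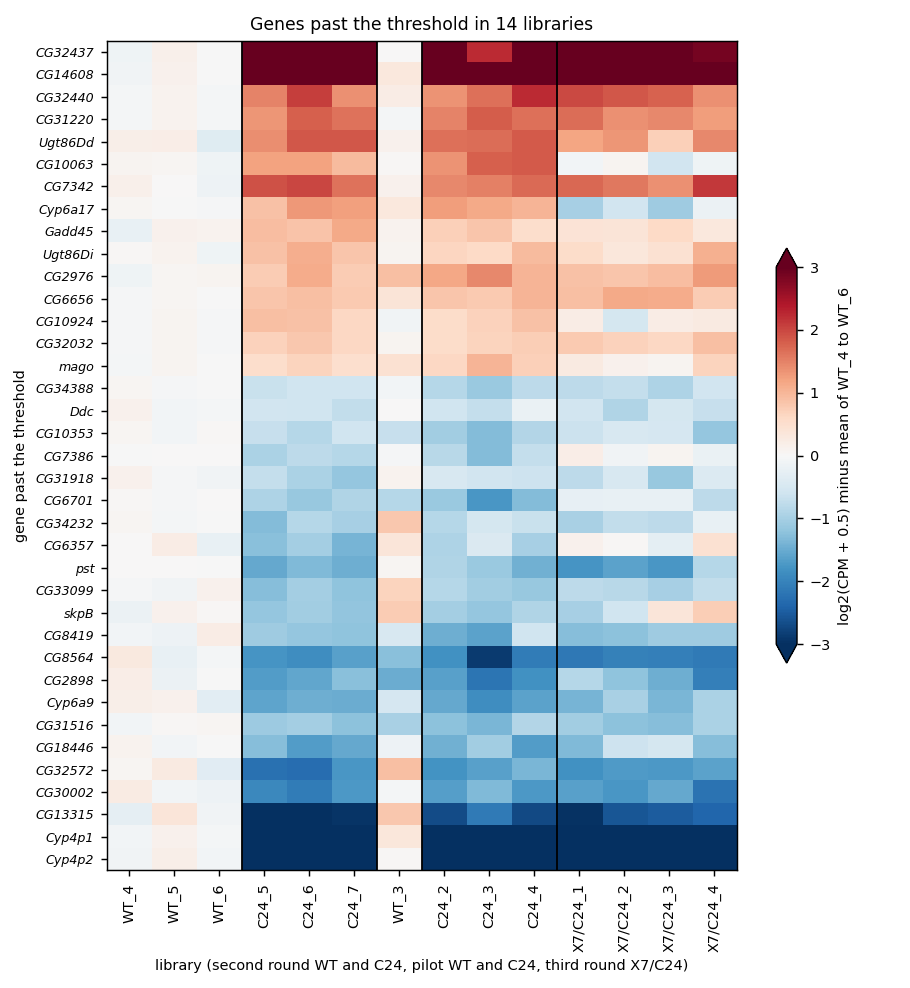
Log2(CPM + 0.5) of the 37 genes minus the mean of WT_4 to WT_6 in 14 libraries, with red above and blue below that mean and colours capped at 3. The pilot C24 libraries repeat the pattern of C24_5 to C24_7, but WT_3 is also near that pattern in some genes, such as CG6701 and CG10353. X7/C24 departs from it in Cyp6a17 (4.21 to 8.32 CPM) and CG6357 (83.8 to 139 CPM).

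In the functional lists as a whole, 9 genes of 851 listed and tested passed the threshold, and 26 of 31 lists held none. This is 1.06% of the listed genes, beside 0.394% of all genes tested. The lists were chosen with earlier results of these data known, so nothing is read from this difference. The white gene (w), the eye color marker of the transgenes, was at 167 to 200 CPM in WT and 113 to 133 in C24 without overlap (edgeR adjusted p = 0.0933). DESeq2 called 1 gene of the list of pigment and transgene markers lower in C24, as did edgeR without WT_5 and C24_6. The circadian gene tim was at 11.0 to 12.8 CPM in WT and 4.83 to 8.52 in C24 (edgeR adjusted p = 0.426). The receptor gene mthl8 was at 4.12 to 29.9 CPM in WT and listed at 0, 3.08 and 0 in C24 (edgeR adjusted p = 0.436). Among genes typical of other tissues, the midgut markers summed to 29.8 CPM in WT_4 and 65.1 in WT_5, against 2.75 in WT_6 and 3.41 to 6.79 in C24. The digestive protease gene Jon99Ciii alone was at 41.8 CPM in WT_5. Fat body markers had a median log2 fold change of -0.78 and a negative one in 6 of 7 genes. The larval serum protein gene Lsp1beta was at 42.7 and 44.0 CPM in WT_4 and WT_5, but at 10.8 in WT_6 and 10.5 to 16.5 in C24. The sums of salivary gland markers (147 to 155 CPM in WT, 159 to 169 in C24) and of tracheal markers (104.2 to 114 and 117 to 122) did not overlap. The exact permutation p was 0.1 for each, the smallest that 3 against 3 allow, and 0.65 after adjustment over 13 lists. Most of the salivary sum was fkh, which overlapped (135 to 146 CPM in WT, 126 to 153 in C24), as did the sum of the 6 Sgs glue genes (8.48 to 16.2 and 8.83 to 36.3). No gene of these tissue lists passed the threshold of edgeR, and their part in the results was not tested.

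**Figure D5:**
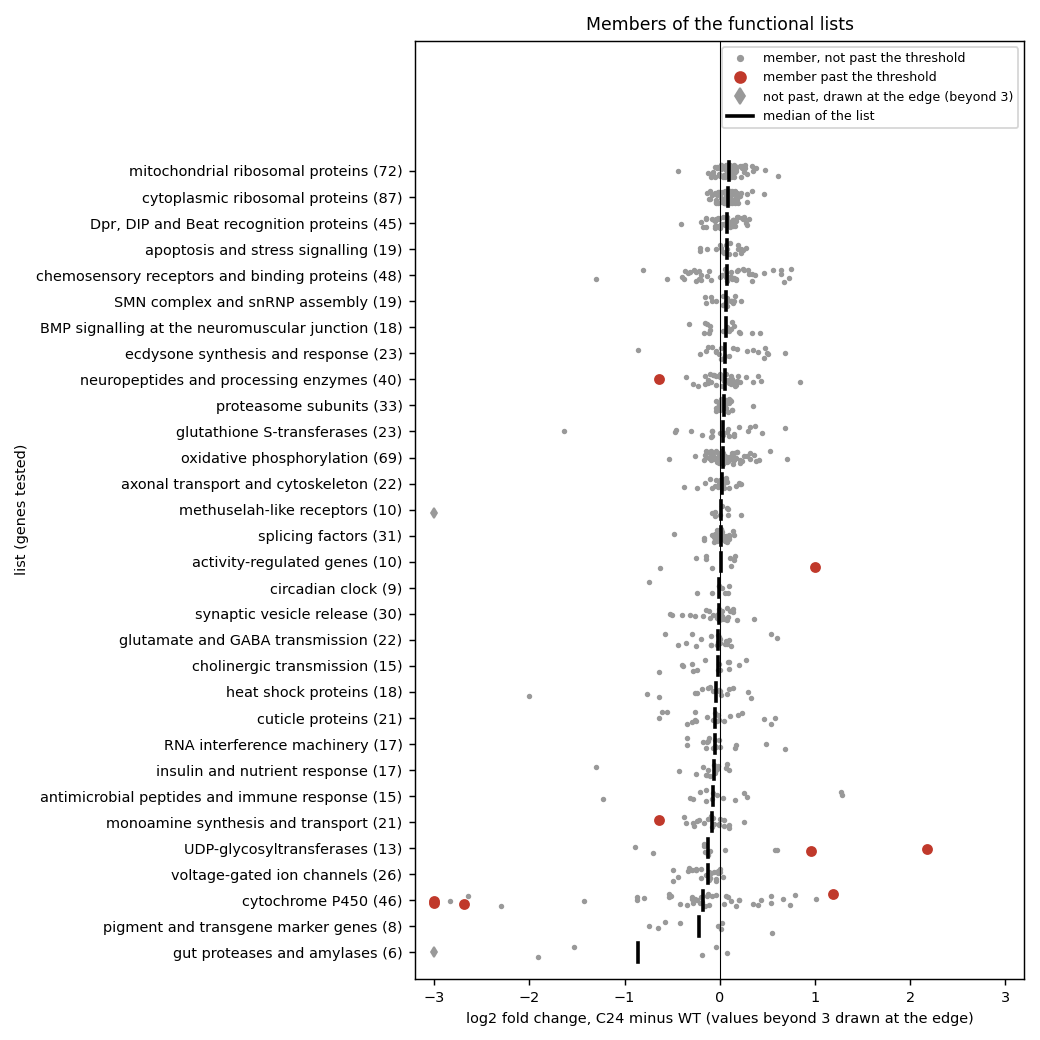
Log2 fold change (C24 minus WT) of the tested members of 31 functional lists, with members past the threshold in red, list medians as black lines and values beyond 3 drawn at the edge. Red points stand in 5 lists only, and most medians lie close to 0.

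The number of calls changed with the libraries used. It was 5 without WT_4, 6 without WT_5, 6 without WT_6, 7 without C24_5, 13 without C24_7 and 27 without C24_6, but 214 with both WT_5 and C24_6 left out, 36 of the 37 among them. In each of the 17 alternatives every one of the 37 genes that was tested kept its direction. Each genotype had libraries of kit set A and of kit set B, and the direction was the same within each set. Both follow from the lack of overlap in the libraries that chose the genes, so neither is an independent check. With a term for the kit set, 11 of the 37 stayed past the threshold. The genes pst, Cyp4p2, CG13315, CG14608 and CG32437 passed the threshold in every alternative that tested them.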

How the data were processed

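Poly-A RNA of CNS pools was sequenced as read pairs. Per the labels and methods, the authors filtered reads, aligned them to the genome with BWA, removed duplicates, and counted unique read pairs per gene of a FlyBase annotation with HTSeq, without regard to strand. The deposited values are these counts, not normalized. The table lists 13872 genes. The members of the comparison and the gene lists were chosen with earlier results of these data known.

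Counts were fitted with edgeR 4.0.16 in R 4.3.3 by its quasi-likelihood test (TMM scaling, filterByExpr, Benjamini-Hochberg adjustment over the 9394 genes kept, threshold 0.05), with 3 libraries against 3 and no covariate. Alternatives used DESeq2 1.42.0, limma 3.58.1, other scalings, filters, terms and library sets. CPM are scaled counts, and the pilot used a pseudocount of 0.5. Sums of markers used exact permutation tests over 20 splits. Intervals for summed counts are exact binomial ones at 95%. Sequencing round and kit set came from the study's methods. Text names each gene past the threshold, and of functional lists without one at most the 2 members with the smallest p, fewer where they add little. Positions come from a BDGP6 annotation matched by gene ID, while the authors used an earlier build.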

Additional observations from a re-analysis of the deposited data

How the results depend on the processing

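Against 37 calls (15 higher, 22 lower in C24), DESeq2 gave 109 (54 and 55) and held all 37, and 68 of its 72 further genes had the second-round sign in the pilot. Restricting the test to 10 or more counts per library gave 10 (5 and 5), with 20 of the 37 tested. A term for the kit set gave 11 (4 and 7). A 2-fold limit left 9 higher, and the joint fit with X7/C24 14 lower. Without WT_5 and C24_6 there were 214 calls (143 and 71), 36 of the 37 among them. With 1 library left out, the counts ran from 5 to 27, of which 2 to 12 were higher and 3 to 15 lower. List members past the threshold numbered 9, then 19 with DESeq2 and 33 without WT_5 and C24_6. With all pilot libraries 31 of the 37 genes had the second-round sign, against 48.6% of all genes. The replicate numbers 5 and 6 occur in both genotypes, but deviations of libraries with the same number correlated at -0.15 and -0.21 across genes, so they were not taken as pairs, and a replicate block gave 14 calls (4 and 10), 10 of them among the 37. Limma-voom, size factors of DESeq2, total counts and no filter gave 31 to 37 calls. No gene changed direction, which is no independent check, as the same libraries chose the genes. The causes of these differences were not tested. Depth limits the 17 genes with a mean log2 CPM below 1, whose ratios have wide intervals.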
